A study of Mus musculus with 10 samples.

Results

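IKZF2, also called Helios, belongs to the Ikaros family of DNA-binding proteins, and its CUT&RUN signal was examined at 10 myeloid genes that encode granule proteins or surface markers. The genes were taken as a named list, and every deposited region inside a gene span or within 20 kb of either gene end in mm10 was assigned to that gene. Of 151133 regions, 64 met this rule for the 10 genes, which were 10 of 21883 protein-coding genes examined. The granule genes of immature myeloid cells were Mpo, Elane, Prtn3 and Ctsg, with 21 regions, and the markers of mature monocytes and granulocytes were Lyz2, Itgam, Cd14, Cd68, Csf1r and Csf3r, with 43 regions. The series contained 6 samples with an anti-IKZF2 antibody, made up of 3 libraries with 2 technical replicates each, and 4 samples with a control rabbit antibody, which were not analysed here. No level measured with the control antibody stands beside the values, so none of them is shown to exceed background. All samples came from RN2 cells, a mouse leukaemia line on the C57BL/6 background that carries the MLL-AF9 fusion and NRASG12D. All cells had also received a retrovirus that expresses murine IKZF2 together with RFP, were sorted, and were kept in culture for 2 weeks, so the protein profiled included transduced IKZF2. In CUT&RUN, micrococcal nuclease fused to protein A cuts around the site of the antibody in permeable cells and the fragments that diffuse out are sequenced. No RNA was measured, so the identity of the cells could not be checked against expressed markers. The libraries came from bulk cells, so more cells with signal at a site and more signal per cell cannot be told apart.

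The granule genes encode enzymes that promyelocytes make and store in primary granules. Myeloperoxidase produces hypochlorous acid, while neutrophil elastase, proteinase 3 and cathepsin G are serine proteases that digest microbial proteins. The mature markers appear or increase as cells become monocytes, macrophages or granulocytes: lysozyme degrades bacterial cell walls, integrin αM pairs with the β chain Itgb2 for adhesion, Cd14 presents lipopolysaccharide to Tlr4, and macrosialin (Cd68) lies in lysosomes. Csf1r and Csf3r are the receptors through which macrophage and granulocyte colony-stimulating factors act. Ikaros family proteins bind DNA through zinc fingers that recognise a GGGAA core.

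The promoters of Cd68 and Lyz2 are shown first because they were the only members of the 8 with a promoter entry where a region overlapped the window from 250 bases before to 50 bases after the transcription start. Each sequence is from RefSeq (build GRCm38.p6, the same coordinates as mm10), reads 5′ to 3′ along the gene and ends 30 bases into the transcript, counting the start base. Capitals mark the bases that lay under a deposited region. The Cd68 sequence is chr11:69666141-69666420 and the Lyz2 sequence is chr10:117282243-117282522, both on the minus strand.
Cd68: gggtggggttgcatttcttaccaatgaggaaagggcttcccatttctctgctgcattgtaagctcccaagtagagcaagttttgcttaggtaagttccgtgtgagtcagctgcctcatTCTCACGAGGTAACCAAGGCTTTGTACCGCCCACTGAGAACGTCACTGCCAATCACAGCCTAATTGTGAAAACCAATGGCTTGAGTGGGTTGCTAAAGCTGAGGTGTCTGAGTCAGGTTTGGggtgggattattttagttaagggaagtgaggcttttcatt
Lyz2: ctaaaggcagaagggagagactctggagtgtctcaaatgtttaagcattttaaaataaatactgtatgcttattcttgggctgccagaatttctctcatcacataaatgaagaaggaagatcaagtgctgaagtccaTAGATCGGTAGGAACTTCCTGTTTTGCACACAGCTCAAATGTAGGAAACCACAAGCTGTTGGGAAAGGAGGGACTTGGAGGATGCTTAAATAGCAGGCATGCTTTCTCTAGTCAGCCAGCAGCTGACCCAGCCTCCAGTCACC
With the start base counted as 0, the region at Cd68 covered positions -132 to -11, and the region at Lyz2 covered positions -113 to 49 of the window and ran past its end. Whether the deposited starts count from 0 or 1 was not given in the sources used here, so these positions may be off by 1 base.

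The technical replicates differed widely in depth. Technical replicate 2 held 1296355 to 1755015 reads in regions and technical replicate 1 held 273896 to 326440. After the technical replicates were summed, the libraries held 1675237, 1570251 and 2081455 reads in regions, of which 862, 914 and 1065 lay in the 64 member regions. Between 18 and 28 of the 64 regions had no read in a sample of technical replicate 1, against 1 to 4 in technical replicate 2. Over all regions, 34.5 to 41.4% had no read in a sample of technical replicate 1, and 1.09 to 3.93% in technical replicate 2. A region of 110 bp with no read in a library allows up to 17.4 CPM per kb at 3 counts in library 2, the shallowest. The labels do not say whether separate cultures stand behind the libraries, so their spread, and the p-values below, may be technical; all SDs are over these 3 libraries.

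The median member region stood close to the median of all regions, while more of the member regions were in the top 10%. Signal is given as CPM per kb, that is, reads scaled to the sum of all regions in the same library (CPM) and divided by the region's width in kb, and the level of a gene is that of its highest region by mean. The median member region stood at 51.5 CPM per kb (33.2 to 166), against 49.5 CPM per kb over all regions (25.6 to 3736.4). The median was 51.4 CPM per kb for granule regions and 51.6 for regions of mature markers. By library the member median was 43.2, 53.6 and 55.1 CPM per kb, against 48.8, 47.4 and 49.5 for all regions, so members lay below all regions in library 1 and above them in libraries 2 and 3. Each region rested on few reads, with a median of 35.5 reads in a member region over all 6 samples (22 to 110), against 31 in all regions. Of the 64 member regions, 12 (18.8%) were among the top 10% of regions by mean level, against 10.0% of all regions by construction. They were 4 of 21 granule regions (19.0%) and 8 of 43 regions of mature markers (18.6%). These 12 lay outside the member spans, and several lay nearest another gene, such as those inside Itgax, Mpdu1 and Oscp1. Only 1 of the 64 (1.56%) reached that top 10% in every library, against 0.644% of all regions, and this was the region at the start of Cd68. Another 4 were in the top 10% in 2 libraries, 19 in 1 library and 40 in none. Over all 151133 regions these counts were 2463, 37579 and 110118. Of the 64 regions, 13 overlapped the span of a member, 3 at granule genes and 10 at mature markers. A member was the nearest gene of 31 of the 64. Most windows lay largely outside the gene, because 20 kb was added at each end. The share over all genes was not computed.

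**Figure D1:**
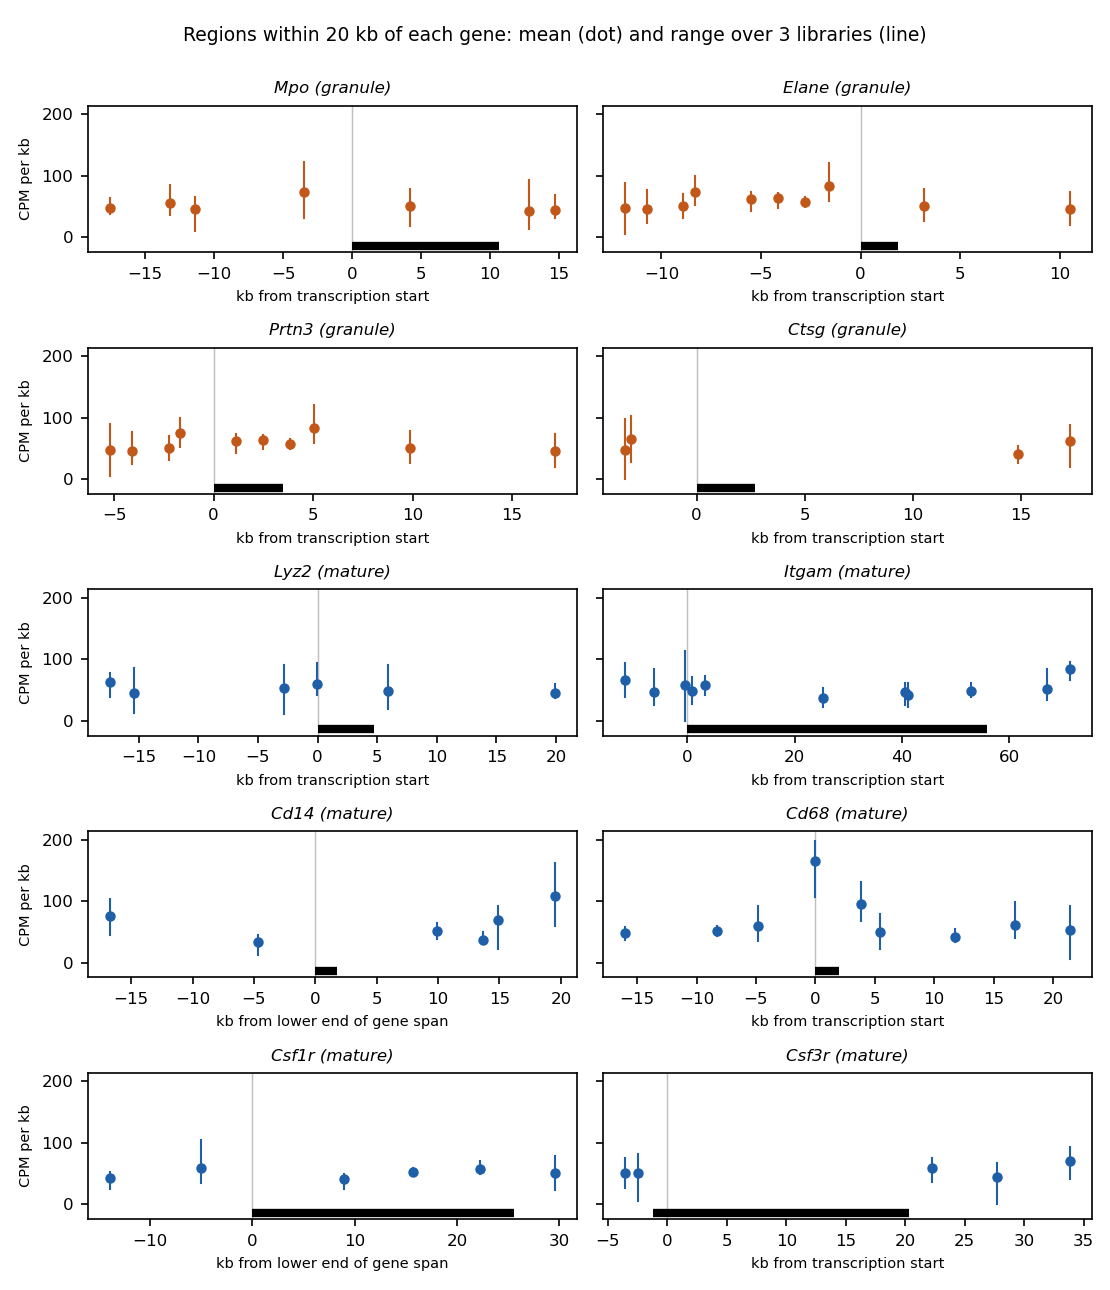
Position and level of all member regions. Each panel is 1 gene, with the distance from its transcription start in kb (from the lower end of the gene span for Cd14 and Csf1r) on the x axis and CPM per kb on the y axis; dots are means and lines the range over 3 libraries, and the black bar is the gene span. The dot beside the Cd68 start stood at 166 CPM per kb, and no other member region exceeded 108.

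Among the granule genes, Elane and Prtn3 lay in the window with the most signal. These neighbouring genes for neutrophil elastase and proteinase 3 share all 10 of their regions, so they carry 1 set of measurements and not 2. Their highest region, chr10:79884669-79884774, lay between them, 1538 bp upstream of the Elane start and 1495 bp past the end of Prtn3. It held 8, 18 and 13 reads in technical replicate 2 of libraries 1, 2 and 3, and 4, 2 and 0 reads in technical replicate 1. Its level was 68.2, 121 and 59.5 CPM per kb in the 3 libraries, a mean of 83.0 ± 33.5 CPM per kb (SD, n = 3 libraries), with library 2 well above the others. The region with the most reads was wider: chr10:79877855-79878132, 1535 bp upstream of the Prtn3 start, had 42, 20 and 37 reads in technical replicate 2, against 4, 3 and 4 in technical replicate 1, and averaged 74.4 ± 23.3 CPM per kb (SD, n = 3). Here library 1 was highest and library 2 lowest, whereas library 2 was highest at the region between the genes. Of the 10 regions, 2 lay inside Prtn3, at 62.5 ± 16.9 and 63.4 ± 13.0 CPM per kb (SD, n = 3), and none overlapped Elane. Other regions of the window lay nearest Plppr3, a membrane protein of the phospholipid phosphatase-related family, and Med16, a Mediator subunit.

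Mpo, the gene of myeloperoxidase, had 7 regions and 237 reads over the 6 samples. Its highest region, chr11:87790231-87790346, lay 3438 bp upstream of the start. The reads were 6, 20 and 13 in technical replicate 2 of libraries 1, 2 and 3, and 0, 2 and 3 in technical replicate 1. The levels of 31.1, 122 and 66.8 CPM per kb averaged 73.3 ± 45.7 (SD, n = 3), with library 2 highest and library 1 lowest. Only 1 region lay inside Mpo, at 51.7 ± 30.5 CPM per kb (SD, n = 3). Of the rest, 3 overlapped Tspoap1, a synaptic scaffold gene, and 2 overlapped Lpo, which encodes the related lactoperoxidase.

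Ctsg, the gene of cathepsin G, had the fewest regions of the members, 4, with 133 reads and none inside the gene. The highest, chr14:56105537-56105642, lay 2963 bp upstream of the start with 5, 12 and 14 reads in technical replicate 2, against 0, 5 and 0 in technical replicate 1. It averaged 65.2 ± 37.4 CPM per kb (28.4, 103 and 64.1; SD, n = 3), again lowest in library 1 and highest in library 2. A second upstream region beside it had no read in library 1 and averaged 47.7 ± 49.3 CPM per kb (SD, n = 3). The other 2 regions lay nearest Mcpt8, a mast cell protease gene of the same cluster.

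Cd68 carried the highest region of all 10 genes. The region, chr11:69666181-69666302, lay 11 bp upstream of the transcription start, between Cd68 and the end of Eif4a1, which encodes a translation initiation helicase. It held 34, 35 and 20 reads in technical replicate 2 of libraries 1, 2 and 3, and 6, 2 and 7 in technical replicate 1. The total of 104 reads has an exact Poisson 95% interval of 85.0 to 126, which covers counting error only and is too narrow where both mates of a pair were counted. The levels were 197, 195 and 107 CPM per kb, a mean of 166 ± 51.3 (SD, n = 3), with libraries 1 and 2 alike and library 3 lower. It was the highest region of the window in 3 of 3 libraries, which held for no other member. From technical replicate 2 alone the level was 174 ± 69.6 CPM per kb and from technical replicate 1 alone 134 ± 64.3 (SD, n = 3). In technical replicate 1 alone Itgam was as high, at 135 ± 88.4 CPM per kb, from a region with 8, 2 and 4 reads there. That was not the Itgam region highest over both technical replicates, which stood at 61.1 ± 52.7 CPM per kb in technical replicate 1 (SD, n = 3). On regions of 200 bp or wider, which leave out the region at the start, Cd68 stood at 48.8 ± 11.4 CPM per kb, against 84.5 ± 15.6 for Itgam and 74.4 ± 23.3 for Elane with Prtn3 (SD, n = 3). The second region of the window, 94.8 ± 32.8 CPM per kb (SD, n = 3), lay in Mpdu1, a gene of dolichol-linked glycosylation, and the remaining 7 stood at 41.3 to 60.5 CPM per kb. No region overlapped the Cd68 span itself.

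**Figure D2:**
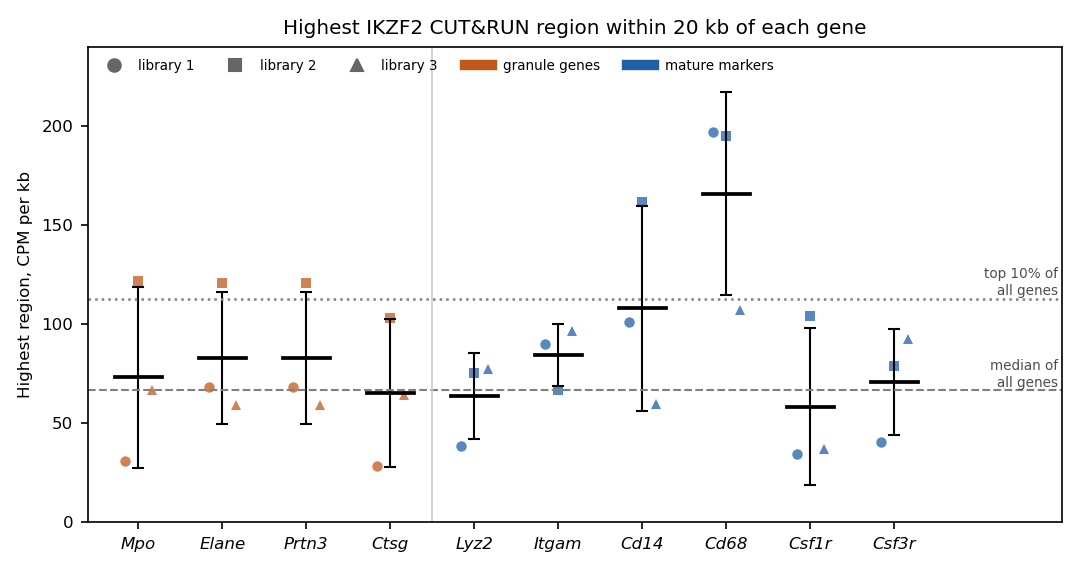
Highest region of each gene by library. The y axis is CPM per kb on a linear scale; points are libraries, bars the mean and whiskers the SD (n = 3), the dashed line is the median over all genes with a region (66.6) and the dotted line the lower limit of their top 10% (113). Only the mean of Cd68 lay above the dotted line, and the ranges of all neighbouring genes in the order overlap.

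Lyz2, which encodes the lysozyme of macrophages and granulocytes, was the other member with a region on its promoter. This region, chr10:117282187-117282385, was 198 bp wide and spanned the start. The reads were 12, 25 and 13 in technical replicate 2, against 2, 4 and 6 in technical replicate 1. Its level was 60.5 ± 28.4 CPM per kb (42.2, 93.3 and 46.1; SD, n = 3), with library 2 above the other two. A narrow region 17356 bp away, nearest to Lyz1, the lysozyme of intestinal Paneth cells, was slightly higher by mean, at 63.8 ± 21.9 CPM per kb (SD, n = 3), and so set the level of the gene. It was the highest of the window in 0 of 3 libraries. The choice between these 2 regions lies within their spread.

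Itgam, the gene of integrin αM (CD11b), had the most regions, 11, with 607 reads over a window widened by its long span. Its highest region, chr7:128133776-128133995, lay inside Itgax, the neighbouring integrin αX gene, 15285 bp past the end of Itgam. It held 25, 21 and 42 reads in technical replicate 2, against 8, 2 and 2 in technical replicate 1, and averaged 84.5 ± 15.6 CPM per kb (89.9, 66.9 and 96.5; SD, n = 3), the smallest SD among the highest regions. Of the 11 regions, 6 lay inside Itgam, where the highest, 324 bp wide with 100 reads, reached 58.1 ± 15.2 CPM per kb (SD, n = 3). A region 313 bp upstream of the start varied most: it had 20, 0 and 12 reads in technical replicate 2, against 1, 0 and 2 in technical replicate 1, giving 114, 0.0 and 61.1 CPM per kb. Library 2 had no read there, although it was the highest library at the leading regions of Mpo, Elane with Prtn3, Ctsg, Cd14 and Csf1r.

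Cd14, the lipopolysaccharide co-receptor, took its level from a distant region. That region, chr18:36744516-36744669, overlapped Ndufa2, a subunit gene of respiratory complex I, and Ik, a splicing factor gene, 17701 bp from Cd14. The reads were 25, 33 and 15 in technical replicate 2, against 1, 6 and 4 in technical replicate 1, and the level averaged 108 ± 51.6 CPM per kb (101, 162 and 59.7; SD, n = 3). The region nearest to Cd14 itself, 4603 bp away, averaged 33.2 ± 18.7 CPM per kb (SD, n = 3), the lowest of all member regions and at percentile 0.502 of all regions. With a window of 5 kb in place of 20 kb, Cd14 therefore stood at 33.2 CPM per kb and was the lowest of the members.

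The receptors for colony-stimulating factors had moderate regions. At Csf1r the highest region, chr18:61100551-61100655, lay 4917 bp outside the span with 4, 15 and 8 reads in technical replicate 2, against 2, 2 and 0 in technical replicate 1. It averaged 58.5 ± 39.5 CPM per kb (34.4, 104 and 37.0; SD, n = 3), with libraries 1 and 3 alike and library 2 higher. The 3 regions inside Csf1r stood at 40.6 to 57.8 CPM per kb. Csf3r had 5 regions and none inside its span. Its highest, chr4:126058422-126058583, lay in Oscp1, covered the listed transcription start of Oscp1, and was 13447 bp past the end of Csf3r. It held 7, 14 and 29 reads in technical replicate 2, against 4, 6 and 2 in technical replicate 1. The level averaged 70.8 ± 26.8 CPM per kb (SD, n = 3), from 40.8, 79.1 and 92.5 in libraries 1, 2 and 3. The 2 regions upstream of Csf3r averaged 51.0 ± 24.5 and 51.6 ± 40.7 CPM per kb (SD, n = 3).

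**Figure D3:**
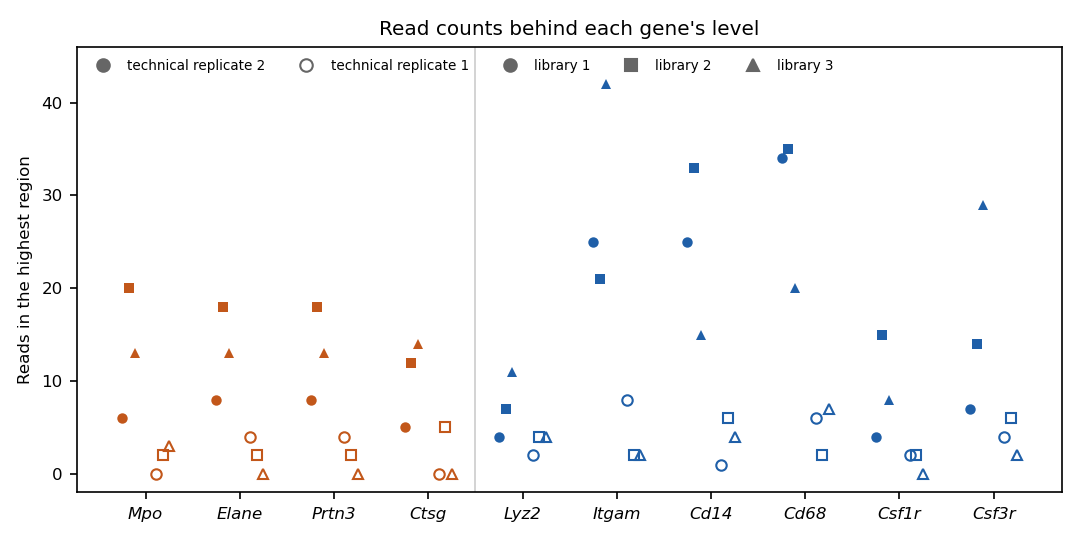
Reads behind the level of each gene. The y axis is the read count in the highest region; filled symbols are technical replicate 2 and open symbols technical replicate 1, with 1 shape per library, orange for granule genes and blue for mature markers. No sample exceeded 42 reads, and the counts of technical replicate 1 lay between 0 and 8.

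Ordered by the mean of the highest region, the genes ran Cd68, Cd14, Itgam, Elane with Prtn3, Mpo, Csf3r, Ctsg, Lyz2 and Csf1r. Each neighbouring pair in this order overlapped between libraries. Cd68 exceeded Cd14 by 58.6 ± 33.2 CPM per kb and was higher in 3 of 3 libraries, while no other neighbouring pair of different regions kept its order in every library. Cd14 exceeded Itgam by 23.4 ± 67.0 CPM per kb and was higher in 2 of 3 libraries. Over the 36 pairs of members, with Elane and Prtn3 counted once, 13 kept their order in all 3 libraries. Cd68 was the higher gene in 8 of the 13. The other 5 were Cd14 over Elane with Prtn3, Cd14 over Csf1r, Elane with Prtn3 over Csf1r, Mpo over Ctsg, and Csf3r over Lyz2. Some of these orders rested on small margins. Cd14 exceeded Elane with Prtn3 by 0.179 CPM per kb in library 3. Mpo exceeded Ctsg by 2.72 in library 1 and 2.79 in library 3, and Csf3r exceeded Lyz2 by 2.27 in library 1 and 3.79 in library 2. For scale, 1 read in library 1 gave 5.53 CPM per kb at a region of 108 bp. Elane with Prtn3 exceeded Csf1r by 24.5 ± 8.46 CPM per kb and Cd14 exceeded Csf1r by 49.3 ± 23.5 (SD of the differences, n = 3). The remaining 23 pairs changed order between libraries.

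Granule genes and mature markers did not differ beyond the spread of the libraries. The mean level was 76.1 ± 35.9 CPM per kb over the 4 granule genes and 92.0 ± 19.1 over the 6 mature markers (SD, n = 3 libraries). In library 1 the means were 49.0 and 83.7, in library 2 they were 117 and 114, and in library 3 they were 62.5 and 78.4 CPM per kb, granule genes first. Granule genes minus mature markers was -34.7, 3.14 and -15.9 CPM per kb, a mean of -15.8 ± 18.9. Elane and Prtn3 enter these means with the same region. Counted once, they left a granule mean of 73.8 CPM per kb and a difference of -18.1 ± 21.6. Without the region at the start of Cd68 the difference was -3.9 ± 25.1. Both of these settings were chosen after seeing the data. The mean difference was positive with a 5 kb window (3.43 ± 28.6 CPM per kb) and on regions of 200 bp or wider (17.0 ± 24.2 CPM per kb). These 2 differences lay within their SD, and each was negative in 1 of 3 libraries. At 200 bp or wider the granule genes were only Elane and Prtn3, whose shared region is a single measurement. The summed signal of the window gave the opposite order, 14.2 ± 1.91 CPM per 10 kb for granule genes and 11.2 ± 0.887 for mature markers, with granule genes higher by 4.78, 3.12 and 0.943 CPM per 10 kb. That difference came with the shared window of Elane (21.3 ± 3.92 CPM per 10 kb) and Prtn3 (20.5 ± 3.77): with the pair counted once it was 0.832 ± 1.34 CPM per 10 kb and positive in 2 of 3 libraries. The other granule genes stood at 8.8 ± 2.37 (Mpo) and 6.05 ± 2.66 (Ctsg), against 19.2 ± 2.1 for Cd68, 14.2 ± 4.1 for Cd14, 11.9 ± 0.586 for Itgam, 9.15 ± 1.03 for Lyz2, 6.59 ± 0.857 for Csf1r and 6.27 ± 2.13 for Csf3r (CPM per 10 kb, SD, n = 3). No p-value was computed, since the genes were chosen with results of these data known.

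Set against all protein-coding genes, 1 member stood high and the others were spread through the distribution. All 10 members had a region within 20 kb, against 19973 of 21883 genes (91.3%). The median member level was 78.1 CPM per kb, against 66.6 over all genes with a region. The level is the maximum of a window, and the members had a median of 6.5 regions each, against 5.0 over all genes. Per 100 kb of window they had 13.6 regions (median), against 7.81 over all genes. One member of 10 (10%), Cd68, was in the top 10% of genes, which started at 113 CPM per kb and held 10.0% of genes by construction. No member was in the top 10% in all 3 libraries, as 1.58% of genes were. Cd68 was at percentile 98.6 of genes and in the top 10% in 2 of 3 libraries, and Cd14 followed at percentile 87.7 and 1 of 3. The other mature markers ranged from percentile 28.6 (Csf1r) to 74.2 (Itgam), and the granule genes from 47.0 (Ctsg) to 73.0 (Elane and Prtn3).

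Member regions were wider than regions in general, and width moves with CPM per kb. The median width was 119 bp in members, 105 bp in granule genes and 129 bp in mature markers, against 109 bp over all regions. Of member regions 12 of 64 (18.8%) were 200 bp or wider, 2 of 21 at granule genes (9.52%) and 10 of 43 at mature markers (23.3%), against 8.86% of all regions. Among regions of 150 to 200 bp the members had a median of 50.5 CPM per kb (13 regions), against 44.6 over all regions of that width, and among those of 200 to 300 bp they had 55.2 (10 regions), against 43.2. Below 100 bp the medians were 51.4 (15 regions) and 51.5 CPM per kb, and at 100 to 120 bp they were 51.8 (17 regions) and 50.3, members first. At 120 to 150 bp they were 49.2 (7 regions) and 49.9, and at 300 bp or more 53.5 (2 regions) and 46.5. Members above the 90th percentile of their own width class were 13 of 64 (20.3%), against about 10% of all regions by construction. They were 1 of 15 below 100 bp, 3 of 17 at 100 to 120 bp and 2 of 7 at 120 to 150 bp. In the 3 wider classes they were 5 of 13, 2 of 10 and 0 of 2.

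**Figure D4:**
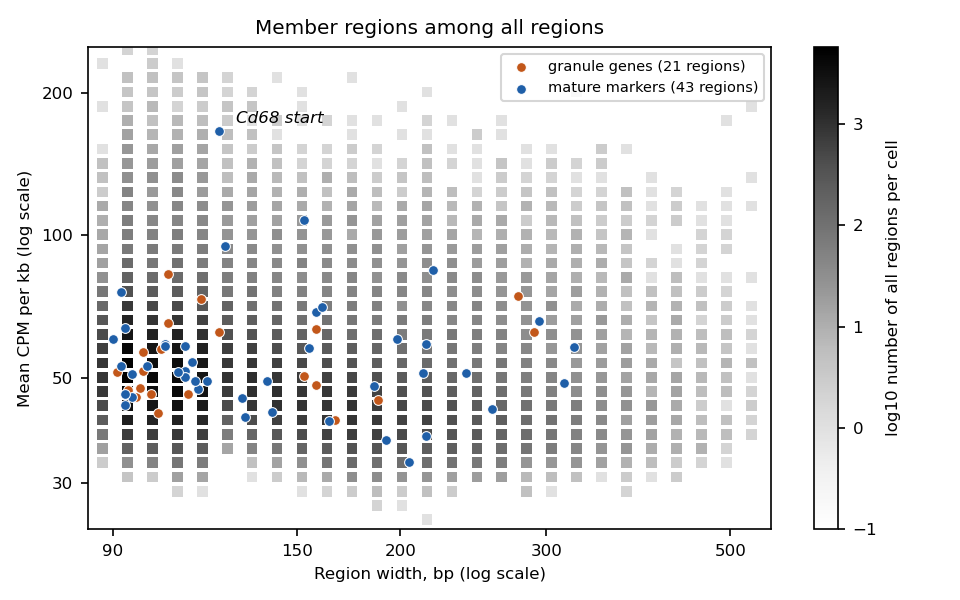
Width and level of member regions among all regions. Both axes are logarithmic, with region width in bp on the x axis and mean CPM per kb on the y axis; grey cells give log10 of the number of all regions within the axes, orange dots the 21 granule regions and blue dots the 43 regions of mature markers. Most dots lie in the dense part of the grey field, and the region at the Cd68 start stands above it at 166 CPM per kb.

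A region overlapped the promoter window of 2 of 8 members, against 4712 of 17491 genes (26.9%). Promoters were searched on both strands for GGGAA (Ikaros core), GAGGAA (PU.1 core) and TTGCNNAA (C/EBP); matches of GAGGAA and GGGAA never overlap each other. Of 21262 promoter windows of this length, 63.0% held GGGAA, 27.4% GAGGAA and 10.2% TTGCNNAA. Of the 8 member promoters, 5 held GGGAA, and 1 of these matches lay under a region, at position -53 of Lyz2. Cd68 had GGGAA at -214 and 10, both outside its region, and TTGCNNAA at -43 inside it, the only C/EBP match among the members. Csf3r had GGGAA at -107 and -28. GAGGAA was found in each member promoter except that of Lyz2, and no match lay under a region. Only these exact letters were searched, so other spellings of a PU.1 site may be present. Mpo and Ctsg are shown for contrast because each held 1 Ikaros core in a promoter without a region. Capitals mark that core, which reads as TTCCC on the printed strand, and the stretches are chr11:87793534-87793813 on the plus strand and chr14:56102545-56102824 on the minus strand.
Mpo: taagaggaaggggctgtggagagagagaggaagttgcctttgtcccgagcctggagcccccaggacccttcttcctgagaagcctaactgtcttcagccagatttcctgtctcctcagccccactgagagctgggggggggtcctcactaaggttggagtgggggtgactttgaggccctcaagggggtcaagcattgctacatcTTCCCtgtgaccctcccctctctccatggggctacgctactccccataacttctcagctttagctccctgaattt
Ctsg: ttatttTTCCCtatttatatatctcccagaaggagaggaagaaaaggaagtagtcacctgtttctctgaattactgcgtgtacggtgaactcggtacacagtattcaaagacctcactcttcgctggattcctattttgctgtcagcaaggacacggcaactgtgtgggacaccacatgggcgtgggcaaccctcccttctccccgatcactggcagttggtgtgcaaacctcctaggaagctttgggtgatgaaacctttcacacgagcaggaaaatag
The core began at position -45 in Mpo and -244 in Ctsg. The promoters of Elane, Prtn3 and Itgam held no GGGAA, which says only that these letters are not in this window.

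The other myeloid genes stood near the level of all genes. Among 41 such genes, all with a region, the median level was 66.7 CPM per kb and 3 (7.32%) were in the top 10% of genes. Of 12 genes for later granule proteins (median 63.4 CPM per kb), 2 were in the top 10%. They were Lcn2, the iron-siderophore binding lipocalin, at 181 ± 65.8 CPM per kb, and S100a9, a calprotectin subunit, at 138 ± 86.7 (SD, n = 3). Both took this level from a region outside the gene, 17095 bp from Lcn2 and nearest to Ptges2, and 14484 bp from S100a9. The lowest was Camp, the cathelicidin, at 49.2 ± 42.8 CPM per kb. Genes for processing, packaging or inhibition of granule proteases had a median of 83.0 CPM per kb over 5 genes, with none in the top 10%. That median is the value of Cfd, the protease adipsin, whose highest region is the one between Elane and Prtn3, so it is the same measurement. Srgn, the proteoglycan core that packs granule proteases, was just below that limit at 113 ± 19.5 CPM per kb with a region inside the gene, and Serpinb1a, an elastase inhibitor, was lowest at 55.5 ± 19.9 (SD, n = 3).

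Ligands and partners of the surface members had a median of 62.1 CPM per kb over 7 genes, 1 of them in the top 10%. This was Csf3, the ligand of Csf3r, at 120 ± 26.8 CPM per kb (SD, n = 3) from a region with 201 reads that lay 17622 bp away and nearest to Psmd3, a proteasome subunit gene. Tlr4, the signalling partner of Cd14, was lowest at 54.6 ± 20.1 CPM per kb. Of 17 other myeloid surface proteins (median 67.6 CPM per kb) none was in the top 10%, from Cd177, a neutrophil surface protein, at 86.3 ± 55.7 CPM per kb to Ly6g, a granulocyte marker of the mouse, at 50.9 ± 28.5 (SD, n = 3). Itgax in this list shares its highest region with Itgam.

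**Figure D5:**
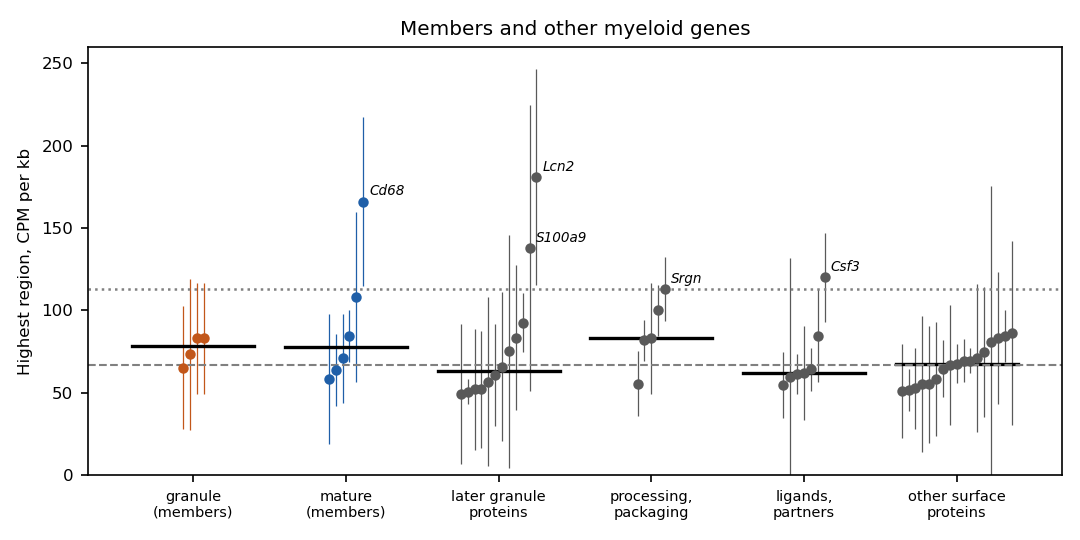
Levels of the members and of 4 lists of other myeloid genes. The y axis is CPM per kb of the highest region; each dot is a gene with its SD over 3 libraries (cut at 0), black bars are list medians, and the dashed and dotted lines are the median (66.6) and the top 10% limit (113) of all genes with a region. Cd68, Lcn2, S100a9 and Csf3 lie above the dotted line, and Srgn lies on it.

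The pattern of Cd68 over the 6 samples was compared with 19973 genes by Euclidean distance in log2 of CPM per kb plus 1. The closest were Haus2, Lrrc57 and Stard9, which share 1 region, chr2:120628942-120629139 inside Stard9, at a distance of 0.766. That region held 39, 42 and 36 reads in technical replicate 2, against 10, 4 and 10 in technical replicate 1, and averaged 136 ± 21.0 CPM per kb (SD, n = 3).

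Of the 64 member regions, 21 passed the count filter, and at these neither technical replicates nor libraries differed detectably. With edgeR's quasi-likelihood test and the library as a block, 0 of the 21 member regions that passed the count filter differed between technical replicate 2 and technical replicate 1 at an adjusted p under 0.05, against 71 of 27452 regions tested (0.259%; 0.138% higher and 0.12% lower in technical replicate 2). At an unadjusted p under 0.05 there was 1 of 21, against 6.86% of all tested, and DESeq2 called 0 of the 21 member regions. The region 1535 bp upstream of Prtn3 was that one, with a log2 fold change (technical replicate 2 over 1) of 1.48 ± 0.67 (SE), edgeR unadjusted p = 0.0266 and adjusted p = 0.576. At the Cd68 start the log2 fold change was 0.92 ± 0.64 (SE; edgeR adjusted p = 0.942), and at the Lyz2 start it was 0.40 ± 0.83 (SE; edgeR adjusted p = 0.99). The median log2 fold change was 0.84 over the 21 member regions and 0.41 over all regions tested. With total counts in place of TMM scaling these medians were 0.48 and 0.05, so the scaling shifted both alike. Between libraries edgeR called 4 of 27452 regions (0.0146%) and 0 of 21 member regions, with 0 of 21 also at an unadjusted p under 0.05, against 4.35% of all tested. DESeq2 called 0 of the 21 member regions and 4 of all regions between libraries. No region of Mpo or Ctsg passed the count filter, so at these genes a difference was not tested in this setting. The regions that set the levels of Lyz2 and Csf1r, and the region 313 bp upstream of Itgam, did not pass either. With no count filter all 64 member regions were tested, at low counts, and 0 were called in either comparison.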

How the data were processed

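Regions were the deposited set common to the 6 anti-IKZF2 samples, and for each sample the deposited file gave a raw read count per region with no normalization. Per the submitters' processing notes, the build is mm10 and the tools include MACS2 as well as Bowtie2 2.3.3.1. What each tool did, which MACS2 version ran and how regions were chosen: not given in the sources used here. Even numbers made up 58.0 to 61.2% (technical replicate 2) and 84.7 to 87.4% (technical replicate 1) of the counts that reached 10, so mates may have been counted separately, and counting intervals are then too narrow. Depth in regions was 273896 to 1755015 reads per sample, and it is not the sequencing depth.

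Groups came from the sample titles. Technical replicates were summed per library because the labels make both part of the same CUT&RUN. CPM used the library's total in regions. The level of a gene was the region with the highest mean CPM per kb within 20 kb of either gene end, and dividing by width favours narrow regions. Gene spans were those of RefSeq GRCm38.p6, and starts, strands and promoters were from its promoter table, which matched 8 of 10 members. The members, gene lists and tests were chosen with earlier results of these data known. The text names all members, the highest, the lowest and the top 10% genes of each list of other myeloid genes, neighbours at a member region, and the 3 genes most like the highest member.

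Counts of all regions were tested with edgeR 4.0.16 in R 4.3.3 (filterByExpr, TMM, glmQLFit, glmQLFTest) at a Benjamini-Hochberg adjusted p under 0.05. One test compared technical replicates and blocked on library, the other compared libraries and kept a technical replicate term. DESeq2 1.42.0 was run as the other count model. Both technical replicates are part of the same CUT&RUN, per the labels, which is where the pairing comes from. Other alternatives were a 5 kb window, the gene span alone, the nearest gene, regions of 200 bp or wider, single technical replicates, CPM without width, summed window signal, other scaling and filters, and leaving out each library. The edgeR step was tested on simulated data. The rest was done in Python 3.11.15, using pandas 2.3.3, numpy 2.4.6, matplotlib 3.10.9 and scipy 1.17.1. Samples with the control antibody (4) were not analysed here.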

Additional observations from a re-analysis of the deposited data

How the results depend on the processing

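The 64 member regions became 37 with a 5 kb window, 13 within gene spans, 31 when regions went to the nearest gene and 12 at 200 bp or wider, and stayed 64 without any 1 library. Granule genes minus mature markers (-15.8 CPM per kb) was 17.0 ± 24.2 CPM per kb on regions of 200 bp or wider and 3.43 ± 28.6 with a 5 kb window. The first of these rests on 5 mature markers and 2 granule genes, Elane and Prtn3, which share the region. The difference was -1.0 CPM without division by width, 2.95 CPM per 10 kb on summed windows and 0.832 CPM per 10 kb with Elane and Prtn3 also counted once, the last chosen after seeing the data. Without 1 library it ran from -19.0 to -6.39 CPM per kb. The cause of these shifts was not tested. The count of members in the top 10% of genes (1) was 0 within gene spans, 0 at 200 bp or wider and 0 from technical replicate 1 alone, and it was 1 to 2 without 1 library, with Cd14 added without library 3. Only 5 of the 10 members had a region within gene spans, Cd68 not among them, and 7 had one at 200 bp or wider. These settings for that count were added after seeing the data. Of 82 alternative gene levels, 72 stayed within 1 SD. Settings that left a gene without a region are not among the 82, and Elane and Prtn3 were counted separately. The highest region was picked anew in each setting. From technical replicate 1 alone Lyz2 stood at 120 CPM per kb, against 63.8, at the same region. Mpo also stood at 120, against 73.3, but at another region, inside the gene, with 0, 8 and 2 reads in technical replicate 1. The Mpo region behind the 73.3 stood at 47.8 ± 42.2 CPM per kb from technical replicate 1 alone (SD, n = 3).

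Between technical replicates the 71 called regions were 46 with no count filter and 46 of 9743 with no replicate block, and 0 to 18 without 1 library (18 without library 1, 0 without library 2, 8 without library 3). The split of 38 higher and 33 lower was 9 and 46 with total counts as library sizes and 14 and 42 with DESeq2. Between libraries the 4 called regions were 0 to 4 without 1 library, 0 without library 2 and 0 without library 3. No member region was called under these alternatives. Depth limited the precision, with a median of 35.5 reads in a member region over 6 samples.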
